A study of Rattus norvegicus with 12 samples.

Results

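Primary rat astrocytes that received interferon-γ together with a compound named GW in the labels were set against astrocytes that received interferon-γ alone. Both groups carried a control siRNA, and the arrays were chosen by their titles, 3 in each group and 6 of the 12 arrays in the series. The astrocytes were isolated from Sprague-Dawley rats, aged 1 day, out of the cerebral cortex, and a serum-free medium had been used to deplete microglia and meningeal cells. After transfection, interferon-γ was given with or without GW for 3 h. The interferon-γ arrays are here called the interferon arrays, and those with both agents the GW arrays. A further 3 arrays with control siRNA and no interferon-γ show the level before treatment. The remaining 3 arrays, with an siRNA against SHP, interferon-γ and GW, entered none of the differences. They entered the estimate of spread, the choice among a gene's rows and the background level. The titles carry the numbers 1, 2 and 3 in every group, so each difference was also taken within a number. GW is named no further in the labels used here, and no target of it is assumed. The labels do not say whether the numbers stand for separate cultures. Each p-value therefore reflects only how far these arrays scatter, and that scatter may be technical. RNA was hybridised to whole-transcript arrays, and every level below is a deposited log2 value. A difference of 1 on that scale is a doubling. The array number of 3 a group limits the precision.

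Interferon-γ binds a cell-surface receptor whose kinases start a transcriptional response. Promoters of responding genes can hold DNA elements called gamma-activated sites (GAS) or pairs of GAAA repeats, the latter bound by factors such as IRF1, and SOCS1 shuts the receptor kinases off. In astrocytes this pathway is known for raising chemokines that draw T cells, antigen presentation genes and guanylate-binding GTPases. Immediate-early genes are a separate class: they encode transcription factors and feedback inhibitors whose RNA rises within minutes to hours of many stimuli.

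The promoter windows below belong to genes that read higher or lower on the GW arrays, not all of them called without a block. These windows show the letters of the elements just named or, in Hes1 and Mt1, of other elements. They come from RefSeq, assembly GRCr8, are read 5′ to 3′ on the gene's strand and lie before the annotated start. In Socs1 (chr10:5389374-5389493, plus strand), Psmb10 (chr19:50743293-50743372, minus strand), Gbp7 (chr2:233948789-233948868, plus strand) and Gbp2 (chr2:234005667-234005726, plus strand) capitals mark GAS letters (TTCNNNGAA) and IRF pairs (GAAA, any 2 bases, GAAA, on either strand). In Themis2 (chr5:150290404-150290463, minus strand) they mark a GAS. In Hes1 (chr11:84213106-84213185, minus strand) they mark TGGGAA, the core bound by the Notch effector CSL. In Mt1 (chr19:10833016-10833155, minus strand) they mark metal response cores (TGCACNC and TGCGCNC, either strand).
Socs1: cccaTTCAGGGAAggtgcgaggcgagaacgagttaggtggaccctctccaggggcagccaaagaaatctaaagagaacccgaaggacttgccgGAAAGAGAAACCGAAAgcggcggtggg
Psmb10: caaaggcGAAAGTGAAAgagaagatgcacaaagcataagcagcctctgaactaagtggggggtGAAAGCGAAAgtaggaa
Gbp7: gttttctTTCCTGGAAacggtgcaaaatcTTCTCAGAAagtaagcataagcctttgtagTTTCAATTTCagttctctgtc
Gbp2: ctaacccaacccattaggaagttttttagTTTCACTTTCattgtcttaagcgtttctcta
Themis2: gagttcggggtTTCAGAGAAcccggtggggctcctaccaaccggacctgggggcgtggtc
Hes1: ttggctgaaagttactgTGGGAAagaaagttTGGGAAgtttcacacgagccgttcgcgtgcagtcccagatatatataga
Mt1: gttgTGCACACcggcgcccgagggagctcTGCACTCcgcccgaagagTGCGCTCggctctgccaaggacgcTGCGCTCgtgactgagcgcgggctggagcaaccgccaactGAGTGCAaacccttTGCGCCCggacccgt

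In Socs1 the capitals near the right end are 2 IRF pairs that overlap, GAAAGAGAAA and GAAACCGAAA, and the GAS lies from 196 to 188 bases before the start. Both strands of each promoter entry were searched, and 14503 of the 18166 genes had one. An entry also holds some bases after the start, so the counts below include matches there. An IRF pair stood in 3.41% of these promoters, in 6 of 10 from the interferon-inducible GTPase list, in 14 of 21 from the antiviral list and in 9 of 13 from the MHC class I list. Among the genes lower with GW it stood in 5 of 40 promoters, and among those higher in 1 of 95. A GAS stood in 7.83% of all promoters, in 4 of 10 from the GTPase list and in 6 of 40 from genes lower with GW. CSL cores stood in 23.5% of all promoters and in 20 of 95 from genes higher with GW. The E-box CACGTG stood in 7.86% of all promoters and in 17 of 95 from genes higher with GW. Either metal response core was common, at 12.9% for TGCACNC and 21.0% for TGCGCNC. Such letters are matches and not measured binding sites.

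With 12 arrays in the fit, 161 of 18166 genes differed between the GW and interferon arrays at a limma adjusted p under 0.05, which is 0.886%. Of these, 115 rose with GW (0.633%) and 46 fell (0.253%). In all 161 the 2 groups did not overlap, so the differences within numbers had to share a sign. Since the 161 were picked by p on the same arrays, this is no separate evidence. Over all genes, the GW arrays lay wholly above the interferon arrays in 8.05% and wholly below in 7.24%. Levels of the same number deviated together in both groups, and a fit with the number as a block called 1189 genes (6.55%), 661 higher (3.64%) and 528 lower (2.91%), with all 161 among them. The count depended on the arrays of numbers 2 and 3. Without the arrays of number 2 in every group, or those of number 3, limma called 0 genes, with 710 and 929 at an unadjusted p under 0.05. Without the arrays of number 1 in every group it called 2081 genes, 1176 higher (6.47%) and 905 lower (4.98%), all 161 among them. These fits also changed the estimate of spread, since untreated and SHP siRNA arrays were left out too. Leaving out 1 interferon array at a time gave 412, 27 and 28 calls for numbers 1, 2 and 3, of which 144, 25 and 28 were among the 161. Leaving out 1 GW array gave 106, 30 and 51 calls, of which 74, 30 and 48 were among the 161. In what follows rose and fell refer to the 161 genes unless the block is named, and the genes tested had a median difference of 0.003. List counts below stand against the shares over all genes. These are 0.633% higher and 0.253% lower, or 3.64% and 2.91% with the block.

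**Figure D1:**
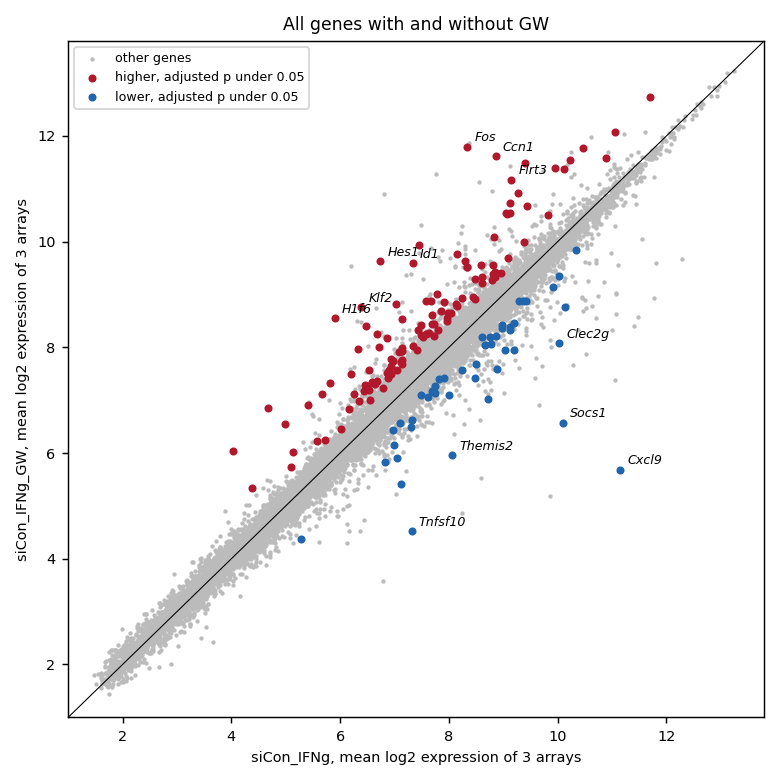
Mean log2 level of every gene on the 3 interferon arrays (horizontal axis) and the 3 GW arrays (vertical axis), 1 point per gene. The 115 genes that rose are red and the 46 that fell are blue. Cxcl9 lies farthest below the diagonal of equal levels and Fos farthest above it among the coloured genes.

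Number 1 stood apart from the other arrays before GW entered the comparison. The median level of the 29 antiviral genes was already 9.60 on the untreated array of number 1, against 8.0 and 7.58 on those of numbers 2 and 3. On the interferon arrays it was 9.76, 9.75 and 9.30. The part of this difference in any result was not tested, and results that rest on it are given by number. Astrocyte markers read high, as the label of the cells implies: the 12 astrocyte markers had array medians from 10.55 to 10.81 on the 6 arrays. Gfap, the astrocyte filament protein, ran from 11.73 to 12.04 with interferon-γ and from 11.81 to 12.06 with GW. Markers of other cell types were present too and are given below. SHP itself, the nuclear receptor Nr0b2, read between 4.59 and 5.09 on these 6 arrays, under the 5.34 that 95% of olfactory and vomeronasal receptor genes did not exceed. That value serves below as the background.

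The transcription factor AP-1, made of Fos and Jun family proteins, included the largest rise, that of Fos. Of 11 AP-1 family genes 4 rose, and 9 passed with the block. Their median difference was 1.45, against 0.003 over all genes. Fos, a partner in AP-1 and the usual marker of recent stimulation, read 9.33, 7.68 and 8.0 on the interferon arrays and 12.37, 11.80 and 11.20 on the GW arrays. The lowest GW array lay above the highest interferon array, and the difference was 3.46 ± 0.48 (SE, n = 3 and 3, limma adjusted p = 0.0125). Without interferon-γ it read 9.24, 7.74 and 7.77, so the interferon arrays sat near the untreated ones. Jun, its main partner, read 9.77, 10.02 and 10.05 with interferon-γ and 11.78, 11.43 and 10.97 with GW (difference 1.45 ± 0.19, adjusted p = 0.0086). Atf3, a stress-induced repressor of the same fold, read 8.98, 9.07 and 9.12 and then 11.05, 10.48 and 10.11 (1.49 ± 0.18, adjusted p = 0.00766). In both genes the groups did not overlap, and number 1 was the highest of the GW arrays. Mafk, a small Maf protein, rose by 0.74. Junb, read at 9.76, 6.78 and 6.87 with interferon-γ and 10.62, 9.33 and 9.16 with GW, overlapped between groups and passed only with the block (adjusted p = 0.00874). Batf3, a factor of dendritic cells, had a negative difference of -0.76 (adjusted p = 0.48).

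Immediate-early genes of the Egr, Nr4a and Ier families had positive differences with a wide spread between numbers. All 14 were positive with a median of 1.47. By limma 0 were called without the block, where 12 had an unadjusted p under 0.05 (6.31% of all genes were higher and 5.05% lower at that p), and 11 were called with it. Nr4a1, an orphan nuclear receptor, read 9.33, 5.45 and 5.62 with interferon-γ and 12.29, 10.68 and 9.75 with GW. The groups did not overlap, and the difference of 4.11 ± 1.01 had an adjusted p of 0.109, or 0.000987 with the block. Egr1, a zinc-finger factor, read 11.004, 7.15 and 6.97 and then 12.47, 11.73 and 11.38. Number 1 was high before GW, and its difference was smaller by 3.03 than that of numbers 2 and 3 (adjusted p = 0.00077). Nr4a3 and Egr2 differed by 3.33 and 2.34, with 1 interferon array of Nr4a3 under background. Fosb and Arc had the larger difference in number 1. Arc, a synaptic protein, read 5.51, 5.39 and 5.39 with interferon-γ and 8.62, 6.32 and 5.94 with GW.

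Krüppel-like factors are zinc-finger regulators, several of which restrain growth and inflammation. Of 13 measured, 4 rose and 6 passed with the block, with a median of 0.60. Klf2, known for quieting endothelial and immune cells, read 6.21, 6.23 and 6.73 with interferon-γ and 8.64, 9.21 and 8.44 with GW. That is 2.38 ± 0.39 (adjusted p = 0.023) with no overlap, from untreated levels of 6.26, 6.70 and 6.44. Klf4 rose by 1.63 ± 0.30, Klf6 by 1.31 ± 0.15 and Klf11 by 0.88 ± 0.11. Klf10, a TGF-β-responsive member, read 8.63, 7.03 and 6.93 and then 9.93, 9.03 and 8.92, and passed only with the block (adjusted p = 0.00101).

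Inhibitors of the MAP kinase cascade were higher on the GW arrays. Of 16 measured, 3 rose, 11 passed with the block, and 14 differences were positive (median 0.71). Errfi1, an inhibitor of the EGF receptor, read 9.07, 9.06 and 9.09 with interferon-γ and 10.60, 10.63 and 10.35 with GW (1.45 ± 0.18, adjusted p = 0.00766). The lowest GW array was more than 1 unit above the highest interferon array. Spry4, which acts on Ras signalling, rose by 1.52 ± 0.22 and Dusp6, the ERK phosphatase, by 1.40 ± 0.21. Within numbers 1, 2 and 3 Dusp6 differed by 0.71, 1.72 and 1.77. Dusp1, a phosphatase for p38 and JNK, read 10.51, 6.41 and 6.40 and then 12.30, 11.11 and 10.44. Its groups overlapped because the interferon array of number 1 was high, and its adjusted p was 0.168, or 0.00404 with the block. Among EGF receptors and ligands only the ligand Hbegf rose of 11: it read 8.19, 6.95 and 7.23 and then 10.32, 9.92 and 9.57 (2.48 ± 0.31, adjusted p = 0.00766). The receptor Egfr differed by 0.06 (adjusted p = 0.96).

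Genes of the Id family, which block basic helix-loop-helix factors and are the best-known targets of BMP signalling, rose together. Of 21 Id and BMP-SMAD genes, 6 rose, 9 passed with the block and 0 fell. Id1 read 7.69, 7.19 and 7.11 with interferon-γ and 9.74, 9.51 and 9.51 with GW, a difference of 2.26 ± 0.19 (adjusted p = 0.00177). On the untreated arrays it read 8.32, 7.76 and 7.74, between the other groups in every number. Id3 read 8.70, 8.91 and 8.88 and then 9.85, 10.28 and 10.12 (1.25 ± 0.18). Id4 rose by 1.29 ± 0.23, with differences of 0.70, 1.55 and 1.61 in numbers 1, 2 and 3. Id2 was under background on all 3 interferon arrays and at least 1.59-fold higher with GW. That bound sets the mean of the GW arrays against the background. The receptor-activated Smad9 rose by 0.56 and the pseudoreceptor Bambi by 0.46. The ligands Bmp4, Bmp6 and Bmp7 differed by 0.18, 0.00 and -0.11, with adjusted p-values of 0.945, 0.996 and 0.965.

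**Figure D2:**
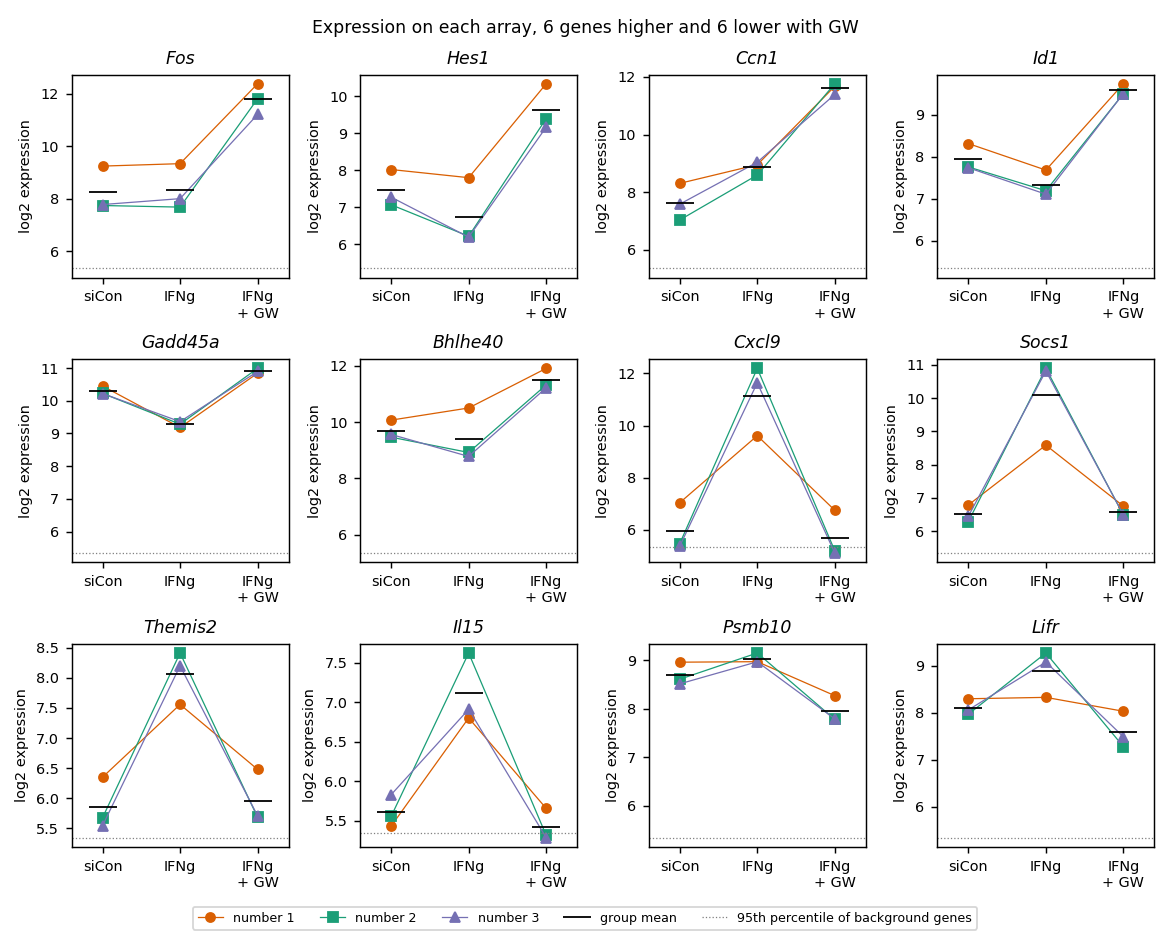
Log2 level of 12 genes on each array without treatment, with interferon-γ and with interferon-γ and GW. Points are arrays, lines join arrays of one number, black bars are group means and the dotted line is the background of 5.34. For all 12 genes the 3 GW arrays lie wholly above or wholly below the 3 interferon arrays, and Cxcl9 reaches the background in numbers 2 and 3.

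Hes1, a repressor that Notch and several other signals induce, read 7.80, 6.21 and 6.19 with interferon-γ and 10.34, 9.40 and 9.17 with GW. The difference was 2.90 ± 0.45 (adjusted p = 0.0174) and nearly the same within each number, at 2.54, 3.18 and 2.98. Its promoter window above holds 2 CSL cores. It was the only one of 16 Notch pathway genes to rise, and the median of that list was 0.08. Jag1, a Notch ligand, read 9.24, 7.73 and 7.57 and then 8.97, 9.24 and 9.23, so number 1 lay the other way (difference between numbers -1.86, adjusted p = 0.0014). Targets of the Hippo effector YAP gave 3 rises of 14, and 6 passed with the block. Ccn1, a secreted matricellular protein, read 8.95, 8.59 and 9.04 and then 11.68, 11.76 and 11.39 (2.75 ± 0.29, adjusted p = 0.00449). Amotl2 and Ajuba, junction proteins that act on the pathway, rose by 1.79 ± 0.24 and 1.19 ± 0.18. Ccn2, a close relative of Ccn1, read 8.56, 7.52 and 7.78 and then 8.77, 9.39 and 9.44 and passed only with the block (adjusted p = 0.0218).

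Circadian clock genes had positive differences throughout. All 17 were positive with a median of 0.74, 3 rose and 13 passed with the block. Bhlhe40, a repressor within the clock, read 10.50, 8.92 and 8.78 with interferon-γ and 11.91, 11.33 and 11.22 with GW (2.08 ± 0.39, adjusted p = 0.037). Nfil3, a repressor of D-box genes, read 6.40, 6.43 and 6.62 and then 8.85, 8.36 and 7.98 (1.91 ± 0.25, adjusted p = 0.0086), and the cryptochrome Cry1 rose by 0.53 ± 0.10. Per1, a period gene that light and hormones induce, read 7.92, 6.07 and 5.99 and then 9.78, 8.35 and 8.13. Its difference of 2.09 had an adjusted p of 0.19, or 0.000139 with the block. Per2, Per3, Cry2 and Nr1d1, with differences of 1.06, 0.55, 0.74 and 1.63, likewise passed with the block. The array medians of the list were 7.63, 7.14 and 6.96 with interferon-γ, 8.85, 8.35 and 8.13 with GW and 7.61, 7.55 and 7.44 without treatment. In each number the GW array had the highest of the 3.

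Growth arrest and energy-sensing genes formed a smaller group. Gadd45a, a DNA damage and stress protein, read 9.18, 9.29 and 9.36 with interferon-γ and 10.84, 10.99 and 10.90 with GW, against 10.45, 10.23 and 10.22 untreated. Its difference of 1.63 ± 0.14 had an adjusted p of 0.00177. Mdm2, the ubiquitin ligase for p53, rose by 0.73 ± 0.13, and these were the 2 of 14 p53 and growth arrest genes that passed. With the block 5 were higher and 1 lower. In the list of AMPK and folliculin genes 3 of 13 rose, and with the block 5 were higher and 1 lower. The folliculin partners Fnip2 and Fnip1 rose by 0.77 ± 0.09 and 0.67 ± 0.08, and the kinase Nim1k by 0.68 ± 0.12. Fnip2 read 6.93, 6.96 and 7.0 with interferon-γ, 7.63, 7.69 and 7.88 with GW and 7.53, 7.67 and 7.60 untreated. Fnip2, Nim1k and Gadd45a thus read lower with interferon-γ alone than in either other group. Irs2, an adaptor of the insulin receptor, rose by 1.60 ± 0.29 and Foxo1, a factor that insulin signalling restrains, by 0.58 ± 0.10. Ppargc1b, a coactivator of mitochondrial genes, was under background on all 3 interferon arrays and at least 1.31-fold higher with GW.

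Stress genes rose in part. Mt1, a metallothionein that binds zinc and copper, read 11.65, 11.79 and 11.66 with interferon-γ and 12.91, 12.72 and 12.58 with GW, a difference of 1.04 ± 0.10 (adjusted p = 0.0024). Mt1f read 10.32, 10.78 and 10.28 and then 12.04, 11.68 and 11.57 (1.30 ± 0.15). Both genes are near-identical copies, so their separate levels are uncertain. The window of Mt1 above holds 6 metal response cores, and 5 of 5 metallothionein list promoters hold each form. Mt2A, near the top of the scale at 13.02 to 13.26, differed by 0.07. Chac1, a glutathione-degrading enzyme of the integrated stress response, rose by 1.42 ± 0.25, the only one of 15 genes in that list, of which 4 passed with the block. Ddit3, its death-linked factor, read 9.82, 8.48 and 8.20 and then 10.13, 10.49 and 10.19, and passed with the block (adjusted p = 0.0434). Of 13 heat shock chaperones all had positive differences and 2 rose, Hsph1 by 1.24 ± 0.24 and Dnaja1 by 0.70 ± 0.14. Hsph1 read 9.46, 9.38 and 9.46 and then 11.28, 10.69 and 10.06. The list's median difference was 0.97, 0.35 and 0.12 in numbers 1, 2 and 3. Of 15 NRF2 and glutathione genes only Gclc, a subunit of the enzyme that begins glutathione synthesis, rose (0.68 ± 0.14), while its partner Gclm had a difference of -0.67 that passed with the block (adjusted p = 0.0118). With the block 4 of the 15 were higher and 3 lower, where 3.64% and 2.91% of all genes were.

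Several of the largest rises belonged to none of these groups. Flrt3, an adhesion protein, read 8.50, 9.43 and 9.52 with interferon-γ and 11.06, 11.33 and 11.12 with GW (2.02 ± 0.33, adjusted p = 0.0206). H1f6, a testis-type linker histone, read 5.77, 5.92 and 6.01 and then 7.63, 9.55 and 8.47 (2.65 ± 0.41, adjusted p = 0.0174). H2bcl1 was under background on all interferon arrays and at least 1.63-fold higher with GW. Histone genes are a family of near-identical copies, and these assignments are uncertain. Garin4 read 4.57, 4.75 and 4.68, all under background, and then 7.38, 7.24 and 5.92, at least 2.84-fold higher. Trim17, a ubiquitin ligase, was also under background on the interferon arrays and at least 2.31-fold higher with GW. Ccnl1, a cyclin of RNA splicing, rose by 1.60 ± 0.26. The regulators Tsc22d2, Cpeb4 and Zbtb38 rose by 1.23 ± 0.13, 1.18 ± 0.17 and 0.96 ± 0.12. Socs5, a member of the SOCS family linked to EGF receptor signalling, rose by 0.82 ± 0.15.

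Few genes of the lipid lists were called without the block, where 0.633% of all genes rose. Of 17 LXR receptors and targets only Srebf1, the master factor of fatty acid synthesis, rose. It read 8.65, 8.38 and 8.38 with interferon-γ and 9.23, 9.33 and 9.32 with GW (0.82 ± 0.15, adjusted p = 0.0316). The sterol exporters Abca1 and Abcg1 and the ligase Mylip, with differences of 0.67, 0.53 and 0.47, passed with the block (adjusted p = 0.0239, 0.0439 and 0.0457), and the list's median was -0.07. With the block 4 of the 17 were higher, where 3.64% of all genes were. Of 18 genes of cholesterol synthesis and uptake only Insig1, which holds the sterol sensor in the ER, rose. It read 7.90, 8.52 and 8.57 and then 9.31, 9.68 and 9.56 (1.19 ± 0.21), and 2 of the 18 were higher with the block.

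Among the falls, the chemokine Cxcl9, a ligand of the T-cell receptor CXCR3 and a standard readout of interferon-γ, was the largest. It read 9.61, 12.19 and 11.64 with interferon-γ and 6.75, 5.19 and 5.11 with GW, the last 2 under background. The difference was -5.47 ± 0.87 (adjusted p = 0.0191), or -5.34 with those 2 set to the background. Untreated arrays read 7.04, 5.47 and 5.37, the last 2 close to the background, so they are not ranked against the GW arrays. Cxcl10 and Cxcl11, the other ligands of CXCR3, differed by -2.62 and -3.68. Cxcl10 read 12.22, 12.50 and 12.15 and then 10.91, 9.01 and 9.11, and Cxcl11 10.54, 11.53 and 11.09 and then 8.92, 6.54 and 6.68. Neither group pair overlapped, and both genes passed only with the block (adjusted p = 0.0168 and 0.0267). In all 3 the difference was smaller in number 1 than in numbers 2 and 3 (adjusted p = 0.00093, 0.0061 and 0.0029).

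Socs1, the inhibitor that interferon-γ itself induces, read 8.59, 10.90 and 10.82 with interferon-γ and 6.75, 6.48 and 6.49 with GW. Untreated arrays read 6.79, 6.29 and 6.45, so the GW arrays sat near the untreated level in each number. The difference was -3.52 ± 0.66 (adjusted p = 0.0377), and it was smaller in number 1 by 2.53 (adjusted p = 0.0078). Its window above holds a GAS and the overlapping IRF pairs. Irf1, the factor that binds such pairs, read 11.90, 11.70 and 11.73 with interferon-γ and 11.73, 11.07 and 10.87 with GW, against 9.30, 8.70 and 8.60 untreated. That difference of -0.55 had an adjusted p of 0.374, or 0.118 with the block. Irf8, an interferon-induced partner factor, read 7.95, 10.43 and 10.39 and then 7.75, 7.26 and 7.24, with an adjusted p of 0.237, or 0.0503 with the block. Of 18 interferon signalling genes 0 were called by limma without the block, where 6 were lower at an unadjusted p under 0.05 (5.05% of all genes), and 3 with it: Ifnar1, Jak2 and Nmi, with differences of -0.34, -0.68 and -0.72. The kinase Jak2 read 9.99, 9.54 and 9.33 and then 9.29, 8.75 and 8.77. Of the other SOCS genes, Socs2 and Cish passed with the block (-0.91 and -0.80), while Socs3 read 8.84, 8.26 and 8.31 and then 10.62, 8.47 and 8.19, high in number 1 only.

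The interferon-inducible GTPases listed are guanylate-binding, immunity-related and Mx proteins that act against intracellular pathogens. They had negative differences in 11 of 11 genes with a median of -1.88. By limma 0 were called without the block, where 7 were lower at an unadjusted p under 0.05 (5.05% of all genes), and 10 were called with it, where 2.91% of all genes were lower. Gbp7 read 11.19, 11.83 and 11.42 with interferon-γ and 9.83, 7.96 and 7.94 with GW (-2.91 ± 0.59, adjusted p = 0.0545, or 0.0185 with the block). Ifi47 read 10.65, 11.82 and 11.74 and then 9.74, 7.81 and 7.65, and Gbp2 read 10.41, 11.21 and 10.62 and then 9.89, 8.49 and 8.52. Number 1 stayed high with GW in all 3, and its untreated arrays were high as well, at 10.09, 9.92 and 10.01. The list's median difference was -0.55 in number 1, -2.97 in number 2 and -2.41 in number 3. The median of number 1 was thus the smallest in size. In numbers 2 and 3 the median level with GW, 7.81 and 7.84, lay under that of the untreated arrays, 8.33 and 8.12. Members within a family are close copies, so single levels are uncertain.

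**Figure D3:**
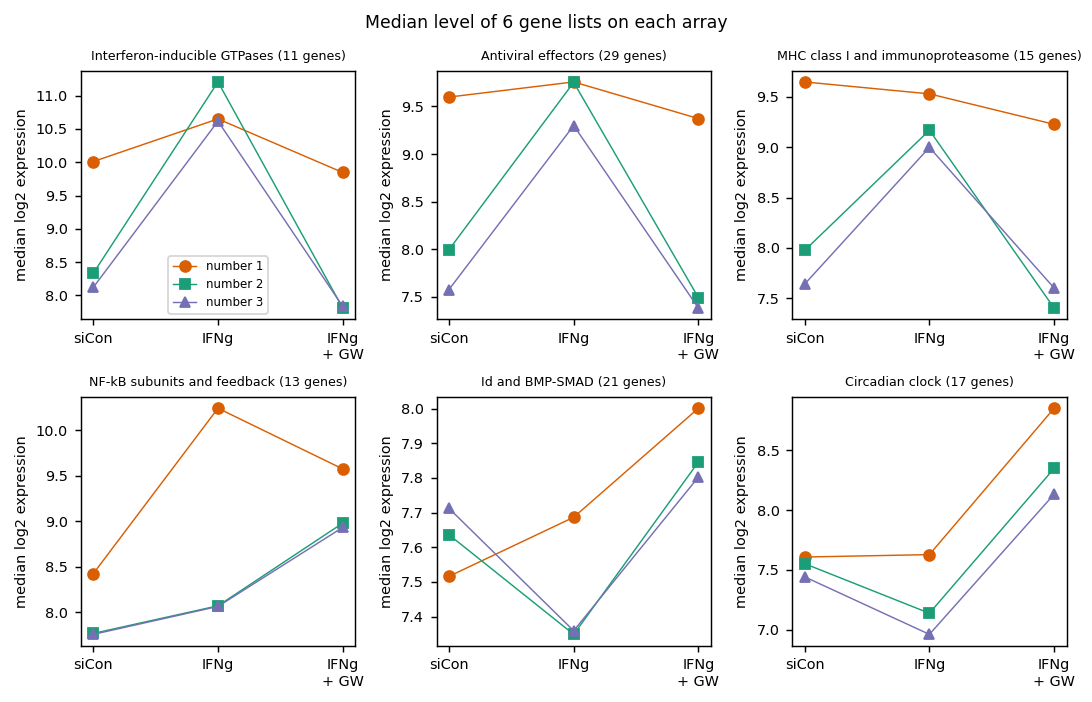
Median log2 level of the members of 6 gene lists on each of the 9 control siRNA arrays, by treatment. The GTPase and antiviral medians of number 1 are high already without treatment, those of numbers 2 and 3 are high with interferon-γ and low with GW, and the clock median is highest with GW in each number.

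Antiviral effectors followed the same order. Of 29 genes 28 had negative differences (median -1.41), 1 fell, and 20 passed with the block. Zc3hav1, a zinc-finger protein that degrades viral RNA, read 9.96, 10.32 and 10.13 with interferon-γ and 9.25, 8.47 and 8.56 with GW (-1.38 ± 0.21, adjusted p = 0.0157). Rsad2, an enzyme that makes a chain-terminating nucleotide, read 12.17, 11.67 and 11.49 and then 11.52, 7.66 and 7.65, and Isg15, a ubiquitin-like modifier, read 11.11, 10.21 and 9.81 and then 10.48, 7.09 and 7.38. In both the GW array of number 1 lay within the range of the interferon arrays. Parp14, Dtx3l and Samhd1 differed by -1.79, -1.71 and -1.95 and passed with the block (adjusted p = 0.0389, 0.0279 and 0.0364). The list's median difference was -0.35 in number 1, -2.17 in number 2 and -1.57 in number 3.

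Antigen presentation genes read lower with GW. Of 15 MHC class I and immunoproteasome genes all had negative differences (median -0.75), 1 fell and 7 passed with the block. Psmb10, a catalytic subunit of the immunoproteasome, read 8.97, 9.15 and 8.97 with interferon-γ and 8.27, 7.78 and 7.79 with GW (-1.08 ± 0.16, adjusted p = 0.0157). All 3 GW arrays lay under the untreated 8.96, 8.61 and 8.52 too. Its window above holds an IRF pair from 17 to 8 bases before the start. The peptide transporter Tap1 read 9.46, 10.11 and 10.05 and then 9.0, 7.40 and 7.60 (adjusted p = 0.154, or 0.0628 with the block), and the light chain B2m differed by -0.17 (adjusted p = 0.868). Ciita, the switch for class II genes, was under background on all GW arrays and at least 1.40-fold lower with GW, a call made only with the block (adjusted p = 0.0195). The class II chaperone Cd74 differed by -0.14 (adjusted p = 0.968).

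Of 11 costimulation and adhesion genes 2 fell, Tnfsf10 and Cd40, and 5 were lower with the block. Of 17 cytokines 1 fell, Il15, and with the block 3 were lower and 1 higher. Tnfsf10 (TRAIL), a death ligand, read 6.02, 8.14 and 7.79 with interferon-γ and 5.37, 4.32 and 3.87 with GW, 2 of the 3 under background (limma adjusted p = 0.0463). With those 2 set to the background the difference was -1.96, against -2.79 as deposited. Il15, which sustains T and NK cells, read 6.80, 7.63 and 6.91 and then 5.66, 5.32 and 5.29, again 2 of 3 under background (-1.69 ± 0.21, adjusted p = 0.00766, or -1.67 with those 2 set to the background). Cd40, a costimulatory receptor, read 7.68, 7.17 and 7.07 and then 6.63, 6.42 and 6.45 (-0.81 ± 0.16, adjusted p = 0.0484). The groups did not overlap in any of these genes. The checkpoint ligand Cd274 (PD-L1) read 9.89, 11.68 and 11.41 and then 9.39, 7.63 and 7.97, with an adjusted p of 0.176, or 0.0736 with the block, and 8.21e-06 without number 1. Lifr, a receptor for LIF, read 8.32, 9.27 and 9.07 and then 8.03, 7.28 and 7.49 (-1.29 ± 0.24, adjusted p = 0.037). It was the only one of 12 genes of gp130 receptors and ligands to fall, and with the block 4 were higher and 2 lower. The ligands Lif and Clcf1 had differences of 1.96 and 1.55 and passed with the block (adjusted p = 0.0242 and 0.00589).

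Less familiar genes made up most of the other falls. Themis2, a signalling adaptor of B cells and macrophages whose window holds a GAS, read 7.56, 8.42 and 8.20 with interferon-γ and 6.48, 5.68 and 5.71 with GW (-2.10 ± 0.31, adjusted p = 0.014). Clec2g, a lectin-like surface protein, read 10.06, 10.06 and 9.96 and then 8.92, 7.65 and 7.65 (-1.95 ± 0.33, adjusted p = 0.027). Apol3l1, of the apolipoprotein L family, read 8.85, 8.69 and 8.64 and then 7.41, 6.90 and 6.73 (-1.71 ± 0.27). In all 3 genes the groups lay more than 1 unit apart. C11h3orf38, C1h19orf12, St3gal6 and Steap2 differed by -1.24, -1.14, -1.05 and -0.99, and Cd302, a C-type lectin receptor, by -0.91. Rnase4 and Ang, ribonucleases that share a locus and may share probes, differed by -0.67 and -0.62. Smaller falls included the mitochondrial Slirp at -0.80, Mrpl30 at -0.51 and the lysosomal enzyme Gusb at -0.54. P2ry14 was called at or near background in both groups, so no size is given.

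**Figure D4:**
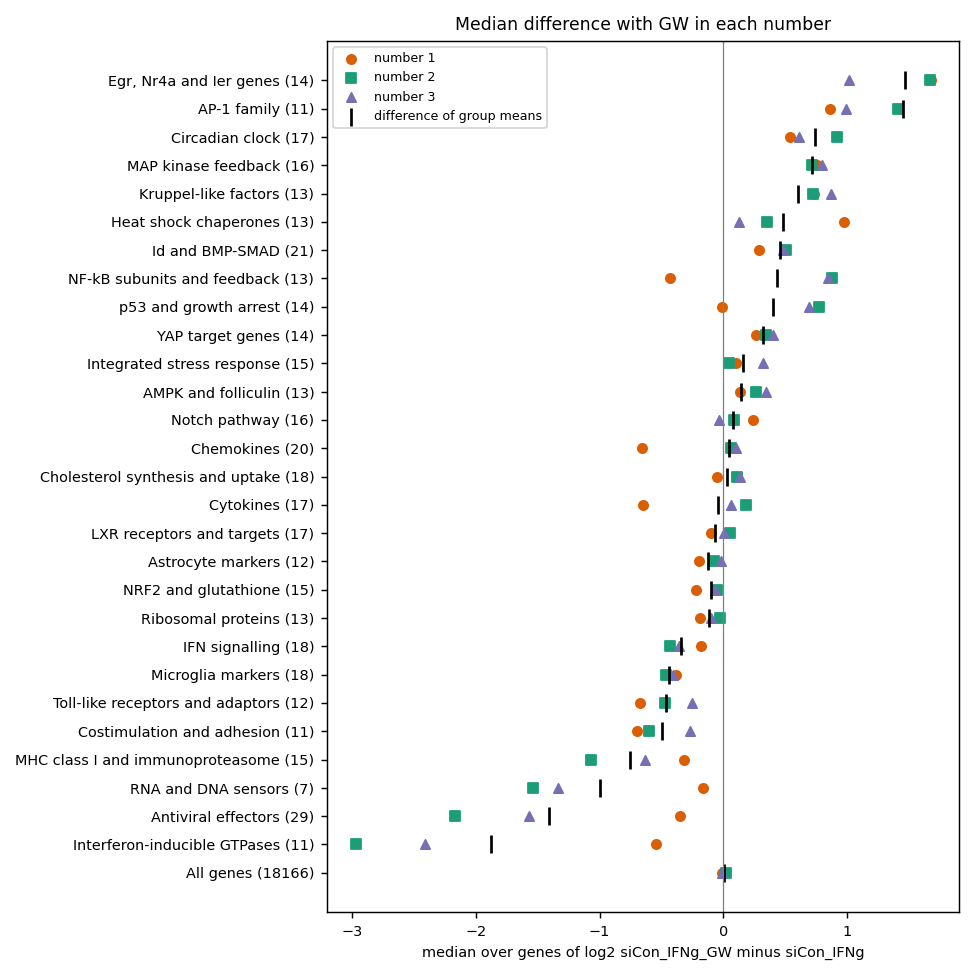
Median log2 difference between the GW and interferon arrays for 28 gene lists and for all genes, 1 point per array number. The GTPase list gives -0.55, -2.97 and -2.41 for numbers 1, 2 and 3, and the clock list 0.54, 0.92 and 0.61.

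Markers of microglia read lower with GW in each number. Their median level was 9.20, 8.91 and 8.76 untreated, 8.88, 8.78 and 8.80 with interferon-γ and 8.36, 8.32 and 8.33 with GW. Of 18 microglia markers 16 had negative differences (median -0.44), 0 were called by limma without the block, where 9 were lower at an unadjusted p under 0.05 (5.05% of all genes), and 10 with it. Their summed level ran from 13.06 to 13.28 on the log2 scale with interferon-γ, from 12.53 to 12.75 with GW and from 13.01 to 13.64 untreated, and 0 of the 18 were under background on all 3 arrays of a group. With interferon-γ the astrocyte markers summed to between 14.15 and 14.40 and the neuron markers to between 12.21 and 12.31. The lists differ in size, so these sums are not shares of cells. Tyrobp, a microglial signalling adaptor, read 9.77, 9.51 and 9.60 and then 8.51, 8.85 and 9.0, and C1qb, a complement subunit, 9.91, 10.19 and 10.12 and then 9.30, 9.58 and 9.68. The median difference of the list was -0.38, -0.47 and -0.41 in numbers 1, 2 and 3. Fewer microglia and less RNA per cell cannot be told apart in such bulk samples, and their part in the falls above was not tested. Astrocyte, oligodendrocyte and neuron markers had medians of -0.12, -0.08 and -0.21, meningeal and vascular markers -0.11, and of the 48 genes in these 4 lists limma called 0 without the block and 1 with it, with 8 at an unadjusted p under 0.05 (11.4% of all genes).

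The difference between the GW and interferon arrays varied with the array number in 549 genes (3.02%), tested as number 1 against the mean of numbers 2 and 3. The term was higher in number 1 for 238 genes (1.31%) and lower for 311 (1.71%), and with arrays centred on their medians 184 were higher and 475 lower. With 1 array a group in number 1, its arrays are assumed to vary like those of numbers 2 and 3. A different effect of GW and 1 deviating array cannot be told apart by this term. In 352 of the 549 the number-1 difference had the opposite sign to the mean of the others. The 161 genes were not free of such differences. Among the largest falls the term was 3.91 for Cxcl9, 2.53 for Socs1, 3.22 for Tnfsf10, 1.53 for Themis2 and 1.22 for Clec2g. Each of these falls was smaller in number 1. Among the rises it was -1.01 for Bhlhe40, -1.03 for Dusp6 and -0.88 for Id4, which belong to the 549. For Hes1, Ccn1 and H1f6, among the larger rises, it was -0.54, -0.04 and -1.17, and they do not belong to the 549.

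NF-κB is the factor behind most acute inflammatory transcription, and 12 of its 13 subunit and feedback genes were among the 311 with a lower term in number 1. The list's median difference was -0.43 in number 1 and 0.88 and 0.84 in numbers 2 and 3. Nfkbia, the inhibitor that NF-κB induces, read 11.94, 9.38 and 9.44 with interferon-γ and 12.19, 11.47 and 11.42 with GW, so the GW arrays were alike and the interferon array of number 1 was high. Ccl3, a chemokine for myeloid cells, read 12.31, 6.60 and 6.73 with interferon-γ and 11.58, 10.95 and 10.86 with GW. Its term was -4.97 (adjusted p = 1.2e-05), and without number 1 its difference was 4.24 (adjusted p = 5.64e-07). On the untreated arrays it read 11.02, 7.71 and 7.68, high in number 1 as well.

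Neutrophil chemokines and first-line cytokines showed the same order. Cxcl2 read 11.48, 5.82 and 5.73 with interferon-γ and 10.52, 9.61 and 9.48 with GW (term -4.73, adjusted p = 0.00037). Ccl20 read 11.78, 6.34 and 6.40 and then 10.75, 9.63 and 9.53, and Tnf 11.39, 6.62 and 6.82 and then 10.66, 8.47 and 8.37. All 3 were higher with GW in numbers 2 and 3 and lower in number 1. Il1b read 10.94, 5.58 and 5.57 and then 9.06, 6.92 and 7.27, and Cxcl1 11.45, 8.04 and 7.88 and then 11.71, 11.42 and 11.13. Among the 20 chemokines, Cxcl9, Cxcl10 and Cxcl11 were the ones called with a higher term in number 1, and others were called with a lower one. Within numbers 2 and 3, then, Ccl3, Cxcl1, Cxcl2 and Ccl20 were higher with GW while the CXCR3 ligands were lower.

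**Figure D5:**
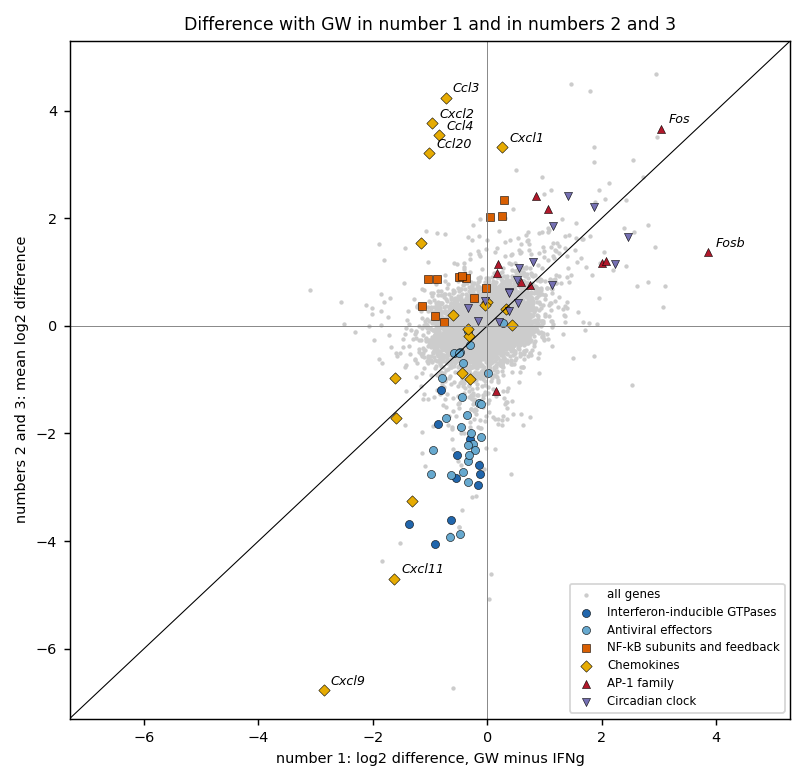
Log2 difference between the GW and interferon arrays in number 1 (horizontal axis) against the mean of numbers 2 and 3 (vertical axis), 1 point per gene, with 6 gene lists coloured. GTPases and antiviral genes lie low with small negative values in number 1, Ccl3 lies at the top with a negative value in number 1, and the AP-1 and clock genes lie mostly in the upper right.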

How the data were processed

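The authors deposited log2 values, 1 for each transcript cluster on each array, running from 1.01 to 13.43. The log base was inferred from that range. Background correction, summarisation and normalization are not given in the sources used here. Per the series text 4 arrays, not named there, were re-analysed from an earlier series. Per the labels' protocols, Trizol RNA was converted to biotin-labelled sense cDNA. Groups and numbers came from the titles.

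Of 36685 rows, 18511 were paired with exactly 1 gene in the probe annotation, 575 with several and 17599 with none. Of the first, 18394 matched RefSeq assembly GRCr8 by Entrez ID. For 291 genes with several rows the row with the highest mean was used, which left 18166 genes. Array medians over genes ran from 6.49 to 6.58, and nothing further was normalized. Background was the 95th percentile, 5.34, of 1344 olfactory and vomeronasal receptor genes. Where 1 group lay under it on all arrays, a bound is given in place of a fold.

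Differences were fitted with limma 3.58.1 in R 4.3.3 on 4 group means over 12 arrays, with Benjamini-Hochberg adjustment over all genes and a threshold of 0.05, and tested on simulated data first. Same-numbered GW and interferon arrays deviated from their group means together (correlations across genes of 0.644, 0.488 and 0.426 for numbers 1, 2 and 3). Deviations within a group cancel out, so a number 1 apart in both groups would by itself raise the values for numbers 2 and 3. That check therefore cannot show that numbers 2 and 3 are matched. The block assumes that the number pairs arrays, and its value stands beside a result whose call it changed. Unless a sentence says otherwise, each adjusted p is limma's. Alternatives changed the block, the arrays fitted, the scaling, the filter, the rows, the variance trend and the minimum fold, and left out arrays. Figures were drawn with matplotlib.

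Named genes were the 15 largest rises and falls, up to 5 members per list with the smallest p, and a short fixed set, of which 1 gene is not reported here. The text names 136 genes. Of these, 39 lie outside the rule and were chosen after their values were seen: Ang, Arc, B2m, Bambi, Batf3, Bmp4, Bmp6, Bmp7, Ccl20, Ccl3, Ccnl1, Cd74, Cpeb4, Cry2, Cxcl2, Dusp1, Egfr, Egr2, Fosb, Foxo1, Gusb, Il1b, Irs2, Isg15, Junb, Mrpl30, Mt1f, Nr1d1, P2ry14, Per3, Ppargc1b, Rnase4, Rsad2, Slirp, Socs3, Tnf, Trim17, Tsc22d2 and Zbtb38. The comparison, the lists and the printed promoter windows were chosen with earlier results of these data known, so no list is independent evidence.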

Additional observations from a re-analysis of the deposited data

How the results depend on the processing

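The count of 161 genes moved to 1189 with the replicate block, and all 161 calls were kept. It fell to 4 when only the 6 arrays compared were fitted without the block (1606 genes at an unadjusted p under 0.05), to 79 with centred arrays, to 83 of 36685 with all rows of the table and to 29 with a minimum fold of 1.2. Centring changed the median difference over all genes by -0.017, and 78 of its 79 calls were among the 161. Leaving out arrays gave 0 to 2081 calls. Quantile normalization, the filter on background, the mean of a gene's rows, an intensity trend and the 6 arrays with the block gave 169, 205, 158, 149 and 120 calls. Of these 147, 158, 157, 148 and 53 were among the 161, so the 6-array fit with the block lost most of them. The term for number 1 moved from 549 genes to 954 above background and to 1101 with a trend. The causes were not tested.

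Of the 136 named genes 73 were called, and 4 kept their call under every alternative, apart from the leave-out fits by array or number. Those alternatives include the fit of only the 6 arrays compared without the block, which called 4 genes in all. Bmp6, which was not called, changed sign to -0.014 with centred arrays. Leaving out arrays changed the sign only of uncalled genes, with ranges of -0.11 to 0.71 for Bmp4, -0.045 to 0.052 for Bmp6, -0.35 to 0.22 for Bmp7, -0.59 to 0.29 for Cd74, -0.076 to 0.23 for Egfr, -0.050 to 0.13 for Gfap, -0.51 to 2.17 for Il1b, -0.17 to 0.15 for Nr0b2 and -0.14 to 1.08 for Socs3. Genes under the background of 5.34 have only a bound, and 3 arrays a group limit every estimate.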
